A study of Mus musculus with 24 samples.

Results

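Interferon-stimulated genes and genes of antigen processing were followed across the sorted dermal papilla (DP) cells of control mice and of mice lacking Hdac1 and Hdac2 in these cells (dM1/2). The set was a list of 37 gene symbols named for their known function, with no threshold on their values. Of these, 36 were found among the 25755 genes of the tables, each with a single row, and Mx2 was not analysed here. They comprised 5 nucleic acid sensors and an antiviral kinase (Ddx58, Ifih1, Dhx58, Zbp1, Eif2ak2), 4 transcription factors (Irf1, Irf7, Irf9, Stat2), 6 genes of ISG15 conjugation and of ubiquitin or ADP-ribose ligation (Isg15, Usp18, Trim25, Dtx3l, Parp9, Parp14), 14 antiviral effectors (Ifit1, Ifit2, Ifit3, Oas2, Oas3, Oasl1, Oasl2, Mx1, Rsad2, Bst2, Xaf1, Rtp4, Ifi44, Ifi35), 3 genes for guanylate-binding proteins and a chemokine (Gbp2, Gbp3, Cxcl10) and 4 genes of antigen processing (Psmb8, Psmb9, Tap1, B2m).

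Type I interferons bind a receptor made of IFNAR1 and IFNAR2 and, through the kinases JAK1 and TYK2, lead to a complex that includes STAT2 and IRF9. This complex binds interferon-stimulated response elements in the promoters of antiviral genes, and interferon gamma acts in part through IRF1. The products include sensors of foreign RNA and DNA, enzymes that block viral replication, and the immunoproteasome and peptide transporter that supply class I molecules with antigen. Hair follicles in their growth phase are known for low class I expression, and HDAC1 and HDAC2 are deacetylases of the nucleus with roles in both repression and activation of transcription.

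The DP is the mesenchymal cell cluster seated in the bulb of each hair follicle. RNA was sequenced from DP cells at postnatal day 20 (P20) and P60, in telogen, the resting phase, and at P24 and P28, in anagen, the growth phase, with 3 control and 3 dM1/2 libraries at each age and 24 in all. Per the study's methods, all mice carried Cor-Cre, which acts in DP cells after birth, and a Cre-dependent EYFP reporter used to sort the cells, each library came from 1 mouse, dM1/2 mice had both genes floxed on both alleles, and controls carried Cor-Cre with floxed Hdac1 or Hdac2 alleles that the labels do not specify further. The genotypes therefore share the transgene, the reporter and the sort, and differ in the number of floxed alleles deleted in cells in which the Cre was active.

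Total reads in genes ranged from 11635062 to 13369732 at P20, 35469841 to 49331751 at P24, 37171260 to 48331795 at P28 and 8171944 to 9724000 at P60. Levels are given as normalized reads, that is, the reads of a gene divided by a scaling factor of its library, the size factor. Hdac1 was lower in every dM1/2 library than in every control at P20 (216.0 to 369.6 against 375.0 to 511.3) and P24 (116.0 to 209.0 against 668.2 to 674.7). The groups overlapped at P28 (125.7 to 190.2 against 104.7 to 529.0) and at P60 (317.7 to 371.1 against 359.9 to 505.9). Whole-gene reads of Hdac2, which can include transcript outside the floxed exons, did not separate as lower at any age. At P24 they were higher in every dM1/2 library (1157 to 1282) than in every control (924.7 to 1069). The lowest Hdac1 level at P28 was in a control, and this library is called the library labelled P28 control 3. The control genotypes in the study's methods include Hdac1 floxed on both alleles with Hdac2 floxed on a single allele. Which genotype each control library had is not given in the labels. All anagen libraries carried Y-linked reads and all telogen libraries carried Xist, so growth phase cannot be told apart from sex. Depth also differed between the growth phases. In sorted bulk cells, fewer cells of a type and less RNA per cell cannot be told apart.

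Promoter letters were read in the windows from 250 bases before to 50 bases after the annotated start of each gene in RefSeq (GRCm38.p6), which held 28 of the 36 genes. No window was given for Dhx58, Zbp1, Usp18, Parp9, Parp14, Oas2, Mx1 or Rtp4. The core of the interferon-stimulated response element, GAAA followed by 2 bases of any kind and GAAA again, searched on both strands, occurred in 14 of 28 windows, against 1131 of 32851 windows of the same length over all genes (3.44%). The shorter STAT palindrome TTCNNNGAA, which reads the same on both strands and can overlap the first motif, occurred in 6 of 28 (21.4%), against 8.3% of all windows. Of the 14 windows with the longer motif, 10 are shown as examples from the effectors, Isg15, the guanylate-binding protein and chemokine genes, a transcription factor and B2m, 5′ to 3′ on the strand of the gene, with 20 bases on each side and the matched letters in capitals. A match is a description of letters, not a site or a cause.
Isg15, chr4:156200855-156200916, minus strand, 3 overlapping matches: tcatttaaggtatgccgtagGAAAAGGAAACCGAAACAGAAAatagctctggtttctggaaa
Ifit1, chr19:34640765-34640833, plus strand: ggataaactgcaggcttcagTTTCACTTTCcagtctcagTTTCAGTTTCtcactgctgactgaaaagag
Ifit3, chr19:34583353-34583436, plus strand: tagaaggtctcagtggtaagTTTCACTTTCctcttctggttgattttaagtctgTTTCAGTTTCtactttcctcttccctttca
Rsad2, chr12:26456543-26456592, minus strand: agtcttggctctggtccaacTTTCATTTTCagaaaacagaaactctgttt
Bst2, chr8:71537567-71537622, minus strand: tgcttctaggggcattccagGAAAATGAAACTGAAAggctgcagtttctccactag
Oas3, chr5:120777705-120777754, minus strand: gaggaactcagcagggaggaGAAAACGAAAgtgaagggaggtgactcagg
Gbp2, chr3:142620584-142620633, plus strand: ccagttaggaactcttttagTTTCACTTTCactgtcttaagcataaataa
Cxcl10, chr5:92349073-92349122, minus strand: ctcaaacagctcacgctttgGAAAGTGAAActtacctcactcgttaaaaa
Stat2, chr10:128270256-128270305, plus strand: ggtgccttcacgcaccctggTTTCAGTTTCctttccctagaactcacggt
B2m, chr2:122147528-122147577, plus strand: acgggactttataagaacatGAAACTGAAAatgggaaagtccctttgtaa
The matches lay 78 to 57 bases before the start of Isg15, 104 to 76 before Ifit1, 156 to 113 before Ifit3, 59 to 50 before Gbp2 and 139 to 130 before B2m. The letters were also found before the start of Gbp3 and, after the start, in the windows of Ifih1, Ddx58 and Eif2ak2.

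Tap1 and Psmb9 are neighbours on chromosome 17 that start 225 bases apart and point away from each other. The stretch between their starts, which serves as the promoter region of both, did not hold the longer motif.
Psmb9 to Tap1, chr17:34187331-34187555, plus strand: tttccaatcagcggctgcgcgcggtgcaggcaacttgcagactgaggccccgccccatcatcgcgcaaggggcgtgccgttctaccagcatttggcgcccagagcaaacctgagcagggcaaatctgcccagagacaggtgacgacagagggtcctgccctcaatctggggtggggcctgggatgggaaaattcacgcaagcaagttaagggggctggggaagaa
Annotated transcripts of Tap1 (34187553 to 34197225) and Psmb9 (34181987 to 34187764) overlap on opposite strands, as do those of Dtx3l (chromosome 16, 35926511 to 35939151, minus strand) and Parp9 (35938470 to 35972605, plus strand). The strand setting of the counting is not given in the sources used here, so reads in these overlaps are uncertain. Ifit3 is nearly identical to Ifit3b and could share reads with it.

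Levels between genes were compared as mean normalized reads per kilobase of exon over the 12 control libraries. B2m, the light chain of class I molecules, was highest at 8579 per kilobase. Irf1, a transcription factor of the interferon gamma response, followed at 2684, and then Gbp2 at 697.1, Cxcl10 at 494.4, Bst2 at 309.8, Ifi35 at 179.7 and Tap1 at 158.7. Isg15, the ubiquitin-like modifier, stood at 112.2. The effectors Mx1 (13.2), Oas2 (10.6), Oasl1 (5.38), Rsad2 (5.29), Oas3 (3.62) and Ifi44 (1.19) formed the low end. Sensors, transcription factors and antigen processing genes were thus read in every library, whereas Ifi44 had between 0 and 11.1 normalized reads in each library outside P60.

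**Figure D1:**
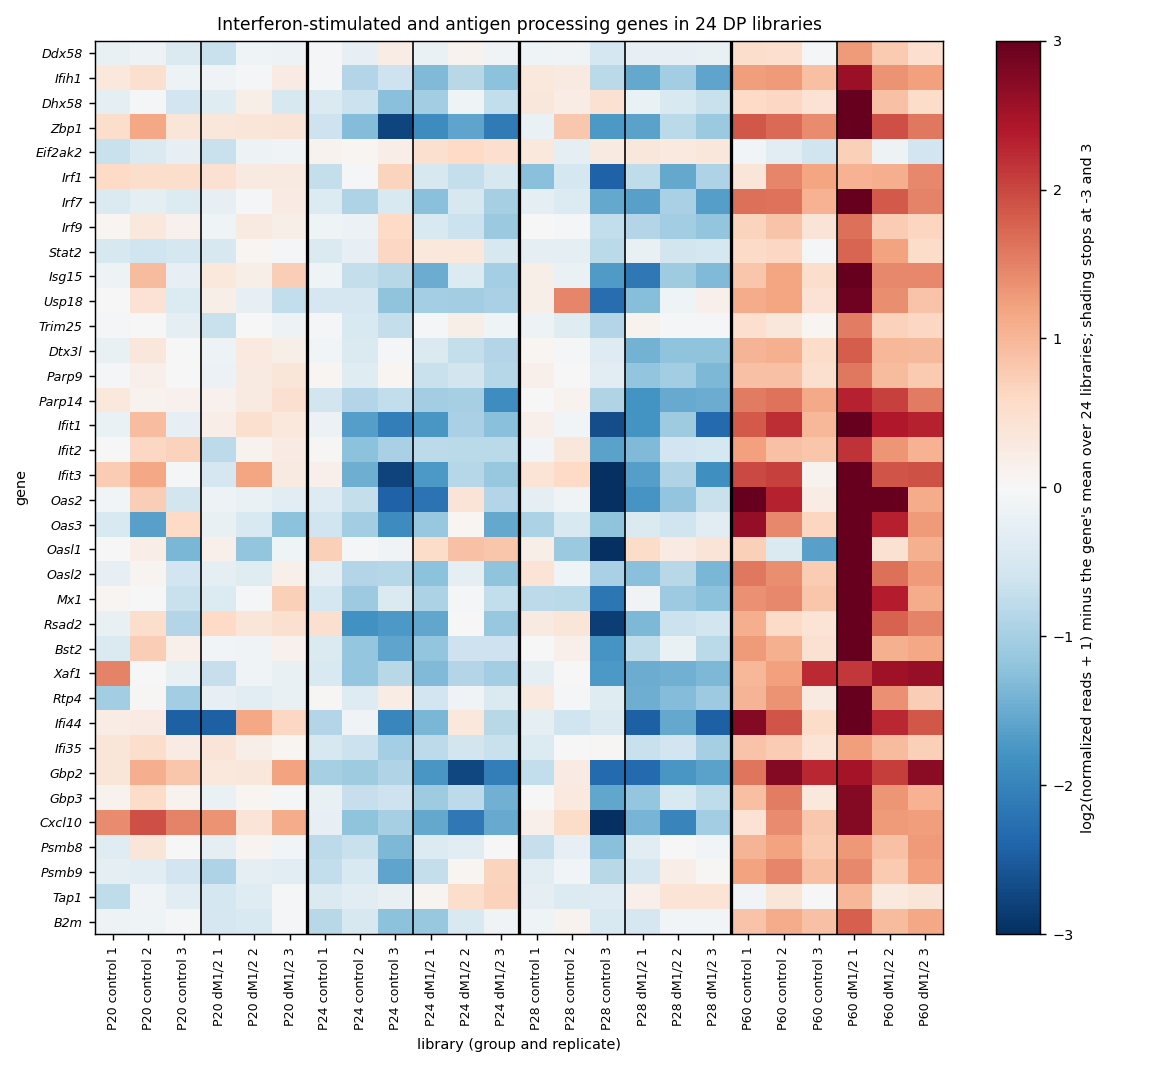
Level of each of the 36 genes (rows, ordered by role) in each of the 24 libraries (columns), as log2(normalized reads + 1) relative to the mean of the gene over the libraries. The P60 columns are the highest for most rows, the column P60 dM1/2 1 stands apart with Irf7 at 5892 normalized reads, and the column of the library labelled P28 control 3 is low for the IFIT genes, with Ifit3 at 2.65.

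At P20 no gene of the set passed the test between dM1/2 and control. With limma, 0 of 35 tested genes had an adjusted p under 0.05, where 0.433% of all genes did. Likewise, edgeR with TMM and DESeq2 called 0 (0.563% and 4.82% of all genes). At an unadjusted p under 0.05 there were 2 (19.8% of all genes), Stat2 with the higher and Cxcl10 with the lower value in dM1/2 cells. Stat2, a transcription factor of the type I interferon response, was read at 512, 471 and 490.4 in controls and at 507, 739 and 688 in dM1/2 cells. Cxcl10, a chemokine that attracts T cells, was read at 1837, 2627 and 1942 in controls and 1749, 903 and 1478 in dM1/2 cells. The groups overlapped for Stat2 and did not for Cxcl10, and adjusted p was 0.23 for Stat2 and 0.168 for Cxcl10. The median log2 difference over the set was -0.09, beside -0.01 over all genes.

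In anagen the set divided. Tap1, which carries peptides to class I molecules, was higher in dM1/2 DP cells at both ages, while Irf9 and Parp9 were lower at both ages and Dtx3l and Parp14, with the sensor Ifih1 and the effector Rtp4, passed as lower at P28. At P24, 6 of 34 tested genes passed the test (26.6% of all genes did), of which 3 were higher (14.8% of all genes) and 3 lower (11.8%). At P28, 9 of 35 passed (35.5% of all genes), 1 higher (20% of all genes) and 8 lower (15.6%). The share of the set that passed was below that of all genes at both ages, but at P28 this turned round without the library labelled P28 control 3, when 18 of 35 genes (51.4%) and 40.9% of all genes were called. With any 1 library left out, 1 to 4 genes were called at P24 (14.6% to 28.7% of all genes). There Gbp2 was called in all 6 such fits, Tap1 in 3, Eif2ak2 and Parp9 in 1 each, and Irf9 and Psmb8 in none. At P28 the calls of Rtp4, Ifih1, Dhx58, Irf9 and Ifi35 held in 5, 3, 2, 1 and 1 of 6 such fits, and those of Dhx58 and Ifi35 were lost with edgeR and TMM.

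Among the sensors, Ifih1, which encodes the RNA sensor MDA5, was read at P28 at 488, 469 and 220.0 in controls and at 134, 190.0 and 129 in dM1/2 libraries. All dM1/2 libraries lay below all controls, and the log2 difference was -1.31 ± 0.34 (SE, adjusted p = 0.0235). At P24 its values were 378, 209.7 and 254 against 154, 219 and 166, with overlap and no call (-0.61 ± 0.25, adjusted p = 0.108). Dhx58, the related sensor LGP2, was read at P28 at 83.1, 75.6 and 89.5 in controls and 56.3, 47.1 and 40.5 in dM1/2 cells, without overlap (-0.78 ± 0.23, adjusted p = 0.0343). Ddx58, which encodes RIG-I, stayed close between genotypes at P28 (0.02 ± 0.15), so the 3 members of this sensor family did not move alike. Eif2ak2, the kinase PKR that halts translation, was higher at P24, at 582, 566 and 625 in controls and 760.4, 819.6 and 774 in dM1/2 cells (0.41 ± 0.11, adjusted p = 0.0289). At P28 its groups overlapped.

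Among the transcription factors, Irf9, the DNA-binding part of the STAT complex, was called lower at both anagen ages with all libraries. Its P24 values were 485, 465 and 805 in controls and 383, 336 and 244 in dM1/2 libraries (-0.84 ± 0.26, adjusted p = 0.0459). Its P28 values were 533, 517 and 319 against 287, 255 and 232 (-0.79 ± 0.23, adjusted p = 0.0335). The groups did not overlap at either age. Irf7, the amplifier of type I interferon genes, was at 211, 189 and 86.8 in P28 controls and at 80.6, 129 and 79.5 in dM1/2 cells, with overlap and no call. Irf1 and Stat2 were not called at either age either.

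The genes of protein modification had the 2 smallest adjusted p of the set at P28, those of Dtx3l and Parp9. Dtx3l, a ubiquitin ligase that works bound to PARP9, was read at P28 at 498, 455 and 366 in controls and at 179, 207 and 206 in dM1/2 libraries (-1.14 ± 0.16, adjusted p = 0.00266). Parp9 was read at 419.7, 375 and 299.6 against 165, 183 and 149 (-1.13 ± 0.18, adjusted p = 0.00384). Parp14, an ADP-ribosyltransferase encoded nearby on chromosome 16, was read at 691, 754 and 378 against 203, 244 and 249.7 (-1.33 ± 0.27, adjusted p = 0.0101). In each of these genes the lowest control lay above the highest dM1/2 library, and the calls of Dtx3l, Parp9 and Parp14 at P28 were kept under every alternative run, including without any 1 library. At P24 Parp9 was called (390.4, 292 and 391 against 238, 259 and 208, -0.60 ± 0.17, adjusted p = 0.0377), while Dtx3l (-0.48 ± 0.17, adjusted p = 0.0736) and Parp14 (-0.57 ± 0.24, adjusted p = 0.125) did not pass although their groups did not overlap. Trim25, which ubiquitinates RIG-I, was above all controls in all 3 dM1/2 libraries at P28, overlapped at P24, and was not called at either age (adjusted p = 0.138 at P24 and 0.108 at P28).

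Among the effectors, Rtp4 was read at P28 at 104, 81.3 and 64.8 in controls and at 29.9, 33.9 and 38.9 in dM1/2 cells, without overlap (-1.24 ± 0.27, adjusted p = 0.0118). Ifi35 was read at 209.7, 281 and 283 against 173, 188 and 139.7, a smaller difference in the same direction (-0.62 ± 0.20, adjusted p = 0.0458). No other effector was called at P28 and none at P24. The IFIT genes, whose products bind foreign RNA, had P28 controls too far apart for a call: Ifit1 was at 140.5, 119 and 19.0 in controls and at 35.8, 59.6 and 24.1 in dM1/2 cells. Ifit3 was at 91.8, 104 and 2.65 against 21.3, 36.4 and 18.5. In both genes the library labelled P28 control 3 was the lowest of the 6.

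Gbp2, an interferon-inducible GTPase, was lower at P24, at 449, 427 and 485 in controls and at 268, 136 and 213 in dM1/2 cells (-1.19 ± 0.24, adjusted p = 0.0113). Gbp3 and Cxcl10 also had no overlap at P24 without passing the test, Cxcl10 at -0.91 ± 0.29 with adjusted p = 0.0515. At P24, 3 genes were higher and 7 lower without overlap of the groups, where 23.8% of all genes were higher and 21% lower. At P28 the counts were 3 higher (28% of all genes) and 8 lower (23.3%).

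Of the 4 antigen processing genes, 2 were called higher at P24 (14.8% of all genes) and 1 at P28 (20%). None was called lower (11.8% of all genes at P24 and 15.6% at P28). Tap1 was read at P24 at 756, 807 and 872 in controls and at 1069, 1457 and 1649.6 in dM1/2 cells (0.76 ± 0.17, adjusted p = 0.0169). At P28 it was read at 834, 760.2 and 772 against 1124, 1358 and 1352 (0.69 ± 0.12, adjusted p = 0.00591). The dM1/2 libraries lay above all controls at both ages. Psmb8, a catalytic subunit of the immunoproteasome, was higher at P24, at 266, 287 and 179 in controls and 346, 370.2 and 458 in dM1/2 cells (0.70 ± 0.21, adjusted p = 0.0457). Psmb9, its partner subunit and the neighbour of Tap1, was at 104, 126 and 57.6 against 105, 181 and 276 and did not pass (0.92 ± 0.41, adjusted p = 0.137). B2m was not called at either age.

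**Figure D2:**
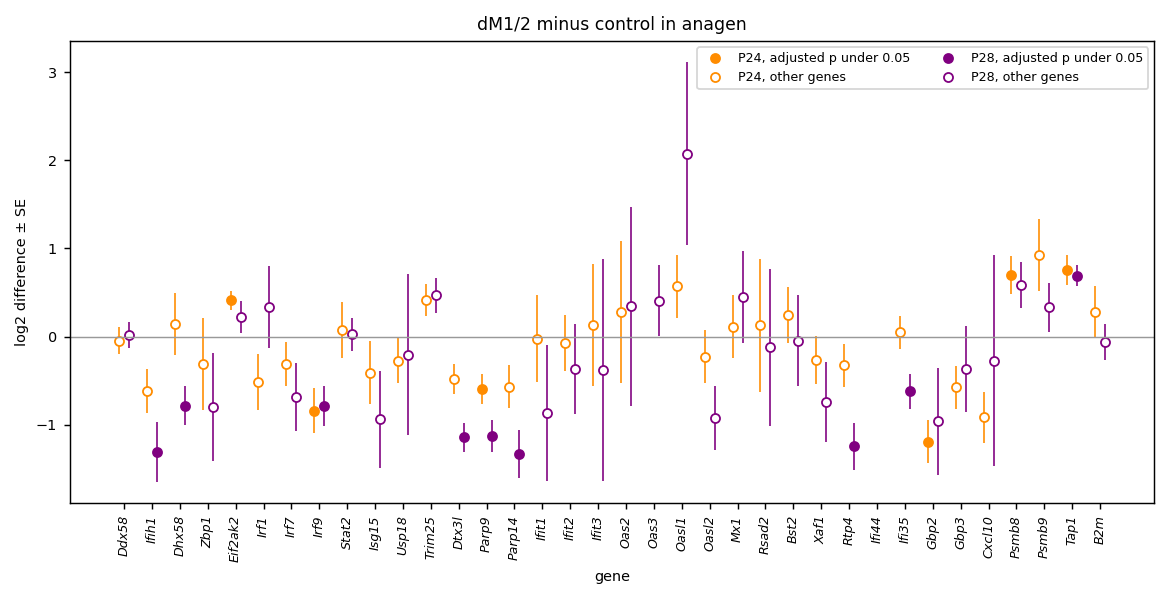
Log2 difference (dM1/2 minus control) of each gene at P24 and at P28, with the standard error as a bar. Filled points have an adjusted p under 0.05: Tap1 is above 0 at both ages (0.76 and 0.69), and Parp9 and Irf9 are below 0 at both.

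The library labelled P28 control 3 differed from the other P28 controls in its cell type markers, and the P28 result was computed again without it. P24 control 3 had sums near those of this library, with DP markers at 426818, other-fibroblast markers at 26514 and immune markers at 193.3. The fit without this library thus compares dM1/2 cells with the controls richer in other-fibroblast markers, and is not a corrected result. Its summed DP markers reached 471366 normalized reads, beside 163277 to 299958 in the other P28 controls and 155402 to 171878 in dM1/2 cells. Its summed markers of other fibroblasts were 23737, beside 70729 and 117588 in the other controls and 27694 to 38202 in dM1/2 cells, and its 15 immune markers summed to 199.1, with 6 of them at 0. It was below the other 5 libraries for 20 of the 35 genes, where 21.7% of all genes were, and at most 0.5 times the lowest of them for 5 (4.98%). Without it, 18 genes of the set were called (40.9% of all genes were), 1 higher and 17 lower, and the median log2 difference moved from -0.37 to -1.01. The additional genes were Zbp1, Irf7, Isg15 (adjusted p = 0.0197), Ifit1 (-1.77), Ifit2, Ifit3 (-1.96), Oasl2, Xaf1, Gbp2 (-1.65), Gbp3 and Cxcl10 (-1.81), while Dhx58 (-0.72, adjusted p = 0.0683) and Ifi35 (-0.55, adjusted p = 0.0799) no longer passed. The 2 remaining controls held more reads of other-fibroblast markers than any dM1/2 library, and at P24 the summed DP markers were 351437 to 426818 in controls and 193379 to 236725 in dM1/2 cells. The part of these markers in the results was not tested. P28 control 2 was above the other 5 libraries for 15 of the 35 genes (20.4% of all genes). With P28 control 1 or P28 control 2 left out instead, the median log2 difference was -0.05 or 0.03. In these fits 5 and 8 of 35 genes were called (23.1% and 36.6% of all genes). The median over the set thus depended on single P28 controls.

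A direct test compared the dM1/2 effect in anagen (P24 and P28) with that in telogen (P20 and P60). It called 7 of 36 genes (30.2% of all genes), all with a lower effect in anagen (14.1% of all genes). Parp9 gave -1.09 ± 0.20 (adjusted p = 0.000466), Parp14 -1.27 ± 0.25 (0.000814) and Dtx3l -1.04 ± 0.22 (0.00131). Irf9 gave -0.97 ± 0.26 (adjusted p = 0.00808), Ifih1 -1.15 ± 0.33 (0.0122), Rtp4 -1.47 ± 0.46 (0.0212) and Isg15 -1.44 ± 0.53 (0.0463). At P20 the log2 differences of Dtx3l, Parp9 and Parp14 had been 0.07, 0.10 and 0.10. The call of Isg15 held in 8 of 24 fits run with a single library removed. Without P60 dM1/2 1 it was lost and Tap1 was called (0.56, adjusted p = 0.0244). Without the library labelled P28 control 3, 13 genes were called, where 30.9% of all genes were.

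The effect at P28 was compared with that at P24 in the same way. No gene of the set passed with edgeR and TMM (0.728% of all genes) or with DESeq2 (4.21%). Limma likewise called 0 of 35, where 0.707% of all genes were called. At an unadjusted p under 0.05 there were 4 (11.9% of all genes), Dhx58, Dtx3l, Rtp4 and Ifi35, all with the lower value at P28.

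At P60 no gene passed either, and 1 dM1/2 library held most of the difference. With limma 0 of 36 genes were called, as were 0% of all genes, and edgeR and DESeq2 called 0. At an unadjusted p under 0.05 there were 8 (3.74% of all genes), all with the higher value in dM1/2 cells (1.97%). Of the 36 genes, 35 had a log2 difference above 0 (53.6% of all genes) with a median of 0.79, beside 0.02 over all genes. P60 control 3 was below the other 5 P60 libraries for 29 of the 36 genes (19.8% of all genes). It was at most 0.5 times the lowest of them for 3 (0.762%). Without P60 control 3 the median was 0.51, and 0 of 36 genes were called (0% of all genes). Isg15 was read at 134, 172 and 108 in controls and at 916, 206 and 205 in dM1/2 cells. Ifit1 was read at 453, 593 and 254 against 2621, 671 and 624. Trim25 was read at 882, 791 and 648 against 1815, 1011 and 963, and Rsad2, the antiviral enzyme viperin, at 48.3, 33.4 and 29.97 against 447, 77.9 and 63.5. These 4 were the genes of the set whose groups did not overlap (4.79% of all genes were higher without overlap), and in all 4 the first dM1/2 library was far above the other 2.

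P60 dM1/2 1 was above the other 5 P60 libraries for 32 of the 36 genes, where 31.4% of all genes were, and reached at least 2 times the highest of them for 18 (3.2% of 14042 genes, ratios on normalized reads + 1). None of the 36 was at most 0.5 times the lowest of the others, where 4.01% of all genes were. Irf7 was at 5892 in it and at most 905 in the others. Bst2, the tetherin that holds virus at the cell surface, was at 3049.7 against at most 611, and Ifit3 at 1825 against at most 288. Ifi44 was at 313 against at most 35.7, Oas3 at 712 against at most 122 and Dhx58 at 568 against at most 120.7. The genes not above the others were Psmb9, Gbp2, Irf1 and Xaf1, and Psmb8 was at 1139 against at most 1123. Of the 100 genes with the highest ratio in this library, 11 belonged to the set, as did 36 of all 14042 genes ranked. A further 6 belonged to the list of other interferon-stimulated genes, as did 54 of all genes ranked, and 3 to the immune cell markers, as did 7. Genes outside the lists that are also known from macrophages, such as C1qa, C1qb, C1qc, Cd163, Mpeg1 and Clec10a, were among the 100 as well. These were picked after their values had been seen.

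**Figure D3:**
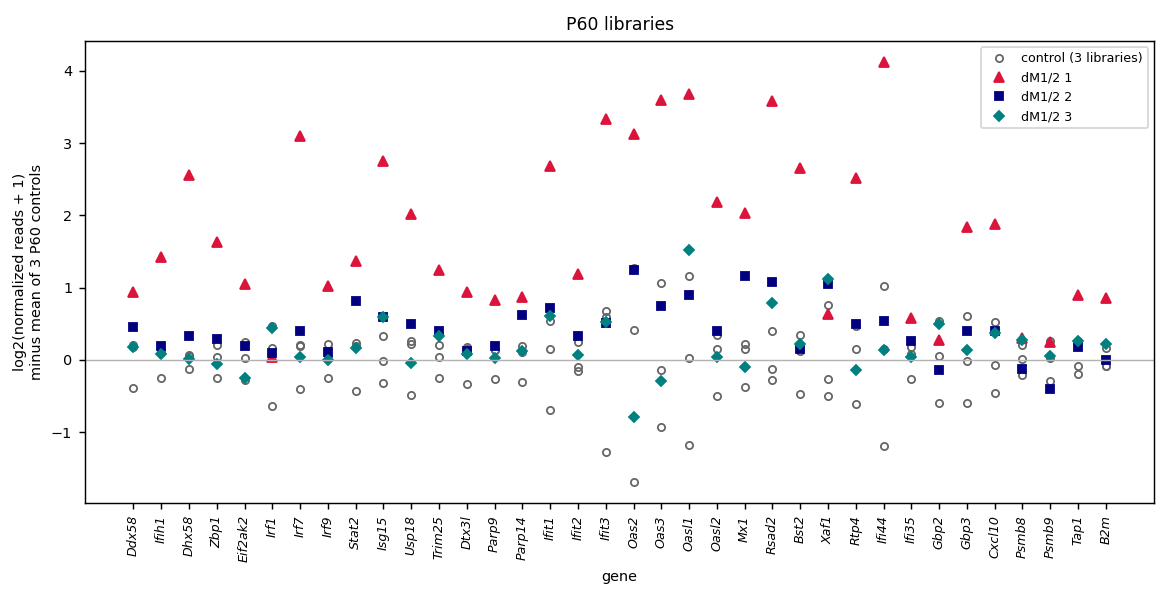
Level of each gene in the 6 P60 libraries, as log2(normalized reads + 1) minus the mean of the 3 controls. The triangles of P60 dM1/2 1 lie above every other point for 32 of 36 genes, while dM1/2 2 and dM1/2 3 lie near the controls.

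Markers of other cells were also higher in P60 dM1/2 1. Its immune markers summed to 1598 normalized reads, beside 383 to 506 in the other P60 libraries, with 10 of 15 markers above the other 5 and 4 at 0 (Cd207, Cd3e, Cd52 and Itgax). Its endothelial markers summed to 6266 (others 1339 to 3151) and its other-fibroblast markers to 248353 (others 131993 to 152257), while its DP markers summed to 24158 (others 30396 to 55820.0). At the other ages the highest immune sums were 2008 in P24 control 1, with Isg15 at 68.1, and 1921 in P28 dM1/2 3, with Isg15 at 29.3. P24 control 1 was above the other 5 libraries of its age for 14 of 34 genes (20.3% of all genes) and below for 1 (17.6%). P28 dM1/2 3 was above those of its age for 2 of 35 (11.2%) and below for 7 (10.3%). Without P60 dM1/2 1 the median log2 difference of the set at P60 was 0.22, and 0 of 36 genes were called (0.0143% of all genes). The part of these markers in the P60 values was not tested.

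**Figure D4:**
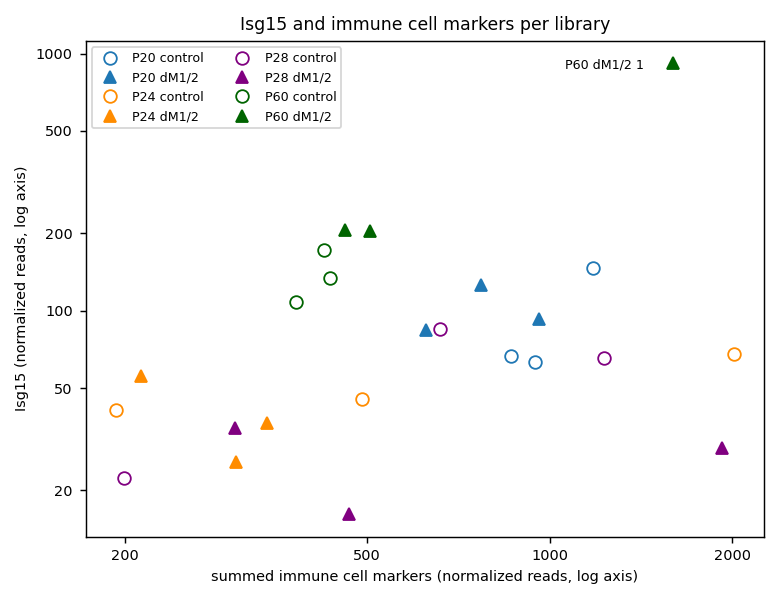
Isg15 against the summed 15 immune cell markers in each of the 24 libraries, both in normalized reads on log axes. P60 dM1/2 1 has a sum of 1598 and Isg15 at 916, P24 control 1 a sum of 2008 and Isg15 at 68.1, and P28 dM1/2 3 a sum of 1921 and Isg15 at 29.3.

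The telogen ages were compared in control mice. From P20 to P60, 15 of 36 genes rose and none fell by the test, where 12.6% of all genes were called and 6.12% called higher. The groups did not overlap for 23 higher genes (17.7% of all genes) and for 1 lower gene (17%), and the median log2 difference was 0.90, beside 0.03 over all genes. The P20 and P60 libraries are 2 separate sets of mice, and the ages also differed in depth.

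Irf7 rose from 187, 211 and 189 at P20 to 791, 789 and 523 at P60 (1.81 ± 0.19, adjusted p = 0.000748). Stat2 (0.92 ± 0.18, adjusted p = 0.0135) was the other factor called. Parp14 rose from 870.5, 755 and 769 to 2063, 2171 and 1545 (1.26 ± 0.16, adjusted p = 0.00146), with Dtx3l (0.84) and Parp9 (0.71) also higher. These are the genes of protein modification that were lower in dM1/2 cells at P28. The sensors Ifih1 (0.92) and Zbp1 (0.96) and the effectors Oasl2 (905, 796 and 507 at P60, from 252, 317 and 201 at P20), Mx1 (1.41), Rtp4 (1.56) and Ifit1 (1.53) rose as well.

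Of the 4 antigen processing genes, 3 rose (6.12% of all genes). Psmb9 went from 145, 138 and 118 to 403, 479 and 325 (1.57 ± 0.20, adjusted p = 0.00154). B2m went from 6077, 6241 and 6599.6 to 12399, 14676 and 12436 (1.06 ± 0.14, adjusted p = 0.00172). Psmb8 (1.01, adjusted p = 0.012) was called and Tap1 (0.51, adjusted p = 0.111) was not. Gbp2 rose from 1165, 1915 and 1612 to 2767, 6101 and 4341 (1.45 ± 0.27, adjusted p = 0.0106). Cxcl10 was the exception, at 1837, 2627 and 1942 at P20 and 921.5, 1821 and 1197 at P60, without overlap and without a call (-0.74 ± 0.24, adjusted p = 0.0692). The calls of Irf7, Parp14, Psmb9, B2m, Oasl2 and Gbp2 were kept under every alternative run, whereas the count fell to 6 without P20 control 3 (3.78% of all genes called) and to 7 without P60 control 2 (5.48%). The summed immune markers were lower at P60 (382.7 to 434.5) than at P20 (862.4 to 1177) in these controls. Keratinocyte markers were higher at P60 (514.8 to 959.3) than at P20 (361.4 to 498.2). Endothelial markers overlapped (1404 to 3151 at P60, 945.5 to 1556 at P20), as did the sums of DP and of other-fibroblast markers. The part of these markers in the change from P20 to P60 was not tested.

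**Figure D5:**
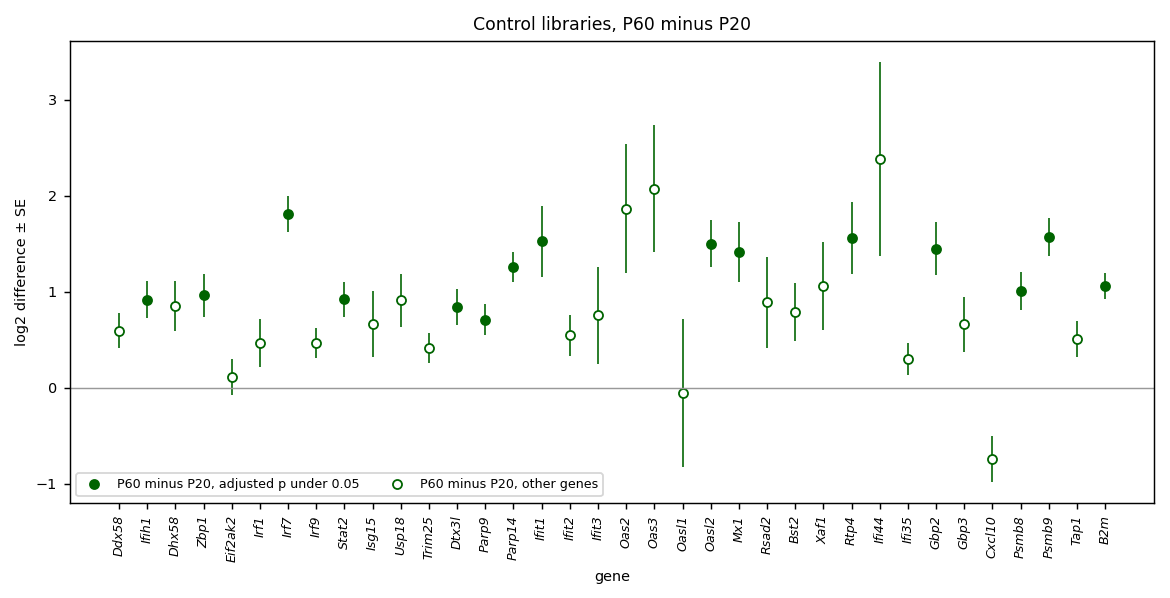
Log2 difference (P60 minus P20) of each gene in control libraries, with the standard error as a bar. The 15 filled points, with an adjusted p under 0.05, are all above 0, from 0.71 (Parp9) to 1.81 (Irf7), and Cxcl10 is at -0.74.

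Between the anagen ages in controls, P28 against P24, no gene of the set passed with limma (0 of 34, beside 1.46% of all genes). At an unadjusted p under 0.05 there were 4 (18.6% of all genes), Dhx58 (1.12), Irf1 (-1.36), Ifi35 (0.59) and B2m (0.69). DESeq2 called 1 (10.7% of all genes) and edgeR 0 (1.02% with TMM).

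Other genes of the pathway were counted from lists of their roles. Interferon ligands were at or near 0: the most reads of any ligand in a library was 3 for Ifnb1, in P60 dM1/2 1. Among the 9 receptor and kinase genes, 2 were lower and 1 higher in dM1/2 cells at P24 (11.8% of all genes were lower and 14.8% higher) and 5 were lower at P28 (15.6%). Ifnar2, a chain of the type I receptor, was at 572, 634 and 605 in P24 controls and 362, 310.4 and 315 in dM1/2 cells (-0.87 ± 0.12, adjusted p = 0.00325). At P28 it was at 799, 717 and 796 against 302, 362 and 369.7 (-1.16 ± 0.13, adjusted p = 0.00113). Il10rb, shared by the type III interferon and interleukin-10 receptors, was also lower at both ages (-0.91 and -1.52), Ifngr1, of the interferon gamma receptor, was lower at P28 (-1.26) and Ifngr2 higher at P24 (0.55). From P20 to P60 in controls 2 of 8 rose (6.12% of all genes), Il10rb (0.90) and Ifngr1 (0.62). In the comparison of anagen with telogen effects 5 of 9 were lower (14.1% of all genes), with Il10rb at -1.24.

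Of 19 signal regulators tested, 1 was lower and 2 higher at P24, and 3 were lower and 2 higher at P28, fewer in all than the 26.6% and 35.5% of all genes called. Irf5, a factor of inflammatory gene induction, was at 135, 145 and 254 in P24 controls and 861, 697 and 996 in dM1/2 cells (2.30 ± 0.26, adjusted p = 0.0018). At P28 it was at 109.6, 70.4 and 125 against 530.5, 556 and 446 (2.35 ± 0.24, adjusted p = 0.000832), and its effect was higher in anagen than in telogen by 1.88. Mb21d1, the DNA sensor cGAS, was higher at both anagen ages (0.76 and 1.02), Socs1, a feedback inhibitor, was lower at P24 (-0.54), and Irf8 (-1.19) and the nucleotide hydrolase Samhd1 (-1.03) were lower at P28. From P20 to P60 in controls 7 of 19 rose (6.12% of all genes) and none fell, led by Nlrc5, the activator of class I genes (1.53), and Socs3 (1.05).

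Among the other interferon-stimulated genes, 8 of 50 were lower (11.8% of all genes) and 1 higher (14.8%) at P24 and 13 of 51 were lower (15.6%) and 3 higher (20%) at P28. Irgm1 (-1.20) and Nmi (-1.46) fell at P24, Cmpk2 (-2.56), Lgals3bp (-1.74) and Lgals9 (-1.49) fell at P28, and Slfn9 rose at both (1.63 at P24). At P20 only Tor3a was called (-0.81 ± 0.13, adjusted p = 0.0454), and at P60 none of 54 was. The effect differed between anagen and telogen for 21 of 52, lower in 19 (14.1% of all genes) and higher in 2, with Trim34a at -1.77. Cmpk2 was the single gene of all lists whose effect differed between P28 and P24 (-2.58 ± 0.48, adjusted p = 0.0399), and it was also higher at P28 than at P24 in controls (2.54). From P20 to P60 in controls 27 of 52 rose (6.12% of all genes) and 1 fell, with Gbp4 (2.76), Gbp9 (2.43), Trim34a (2.40) and Ifi47 (2.25) leading.

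Among 22 partners of class I presentation, 4 were higher (14.8% of all genes) and 1 lower (11.8%) at P24 and 3 higher (20%) and 1 lower (15.6%) at P28. H2-K1, a classical class I heavy chain, was at 2950.5, 3569 and 3053 in P24 controls and 5057, 7421 and 8584 in dM1/2 cells (1.11 ± 0.21, adjusted p = 0.00825), and was higher at P28 by 0.52. H2-Q6 (2.92 and 2.26) and H2-Q7 (2.49 and 2.22) gave larger differences, but genes of this family are near-identical and could share reads. H2-Q7 had a higher effect in anagen than in telogen (1.95), and Erap1, which trims peptides, was lower at P28 (-1.27). From P20 to P60 in controls 9 of 22 rose (6.12% of all genes), among them H2-M3 (1.36) and H2-T23 (1.15). Of 10 class II genes, H2-Ab1 was called at P24 (1.76) and in the comparison of growth phases (1.68), and H2-Aa (1.59) and Cd74 (1.34) rose from P20 to P60 in controls.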

How the data were processed

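RNA from DP cells sorted from individual mice was depleted of ribosomal RNA and sequenced as 50-base single-end reads. Per the labels and the study's methods, Trimmomatic, TopHat2 (version 2) on mm10, HTSeq with GRCm38.p4 genes and DESeq2 were the tools by which the authors trimmed, aligned, counted and scaled. The version of DESeq2 and the strand setting of the counting are not given in the sources used here. The deposited values are a signal, gene read counts divided by 1 size factor per library, and whole reads were recovered for 100% of them (tolerance 0.001). The tables also hold the authors' own fold changes and p-values, which were not used. Of 25755 genes, 4842 had no read.

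Normalized reads were tested as log2(value + 1) with limma (3.58.1, trend, two-sided), for genes with a mean of at least 10 over the libraries of the fit. The fold change of a low gene depends on the added value and on the method. The highest log2 difference of the set at P28 was 2.08, beside 0.91 with a pseudocount of 10 and 1.37 with edgeR and TMM. P-values were adjusted by the method of Benjamini and Hochberg over all genes, with a threshold of 0.05. Pseudocounts of 10, no filter, edgeR (4.0.16) and DESeq2 (1.42.0) on the recovered reads, a replicate block, a single fit over 24 libraries and fits without each library were alternatives. Scripts were tested on simulated counts. Groups came from the labels. Replicates differed by more than counting error, with a chi-square per gene between pairs of libraries of 10.4 to 1485.

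All members were accounted for. Of each list of other pathway genes, up to 4 genes per comparison were named, those with the largest differences among calls whose groups did not overlap. The members and the lists were chosen with earlier results of these data known. Gbp6 and Itgam have more than 1 row and were left out, and Oas1b and Cxcl11 were not analysed here. Promoter windows are from RefSeq (GRCm38.p6).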

Additional observations from a re-analysis of the deposited data

Results flagged for a closer look

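By a test of the difference itself, the dM1/2 effect in anagen differed from that in telogen for 7 of 36 genes (30.2% of all genes). Each had the lower value in anagen on the log2 scale (14.1% of all genes). The differences were -1.15 for Ifih1, -0.97 for Irf9, -1.44 for Isg15, -1.04 for Dtx3l, -1.09 for Parp9, -1.27 for Parp14 and -1.47 for Rtp4. The call of Isg15 held in 8 of 24 fits without 1 library. The same test gave -1.24 for Il10rb and -1.77 for Trim34a, and 1.88 for Irf5, 1.95 for H2-Q7 and 1.68 for H2-Ab1, the largest difference in each list of other pathway genes. Between P28 and P24 the effect differed for Cmpk2 (-2.58). Anagen libraries came from males and were deeper, so growth phase, sex and depth cannot be told apart in the first of these tests.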

How the results depend on the processing

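Replicate numbers are shared between the groups by label only: the correlations of the deviations of same-numbered libraries ranged from -0.40 to 0.34, and in no comparison were all over 0.1. With the replicate block the count of called genes of the set was 3 at P24 (6 without it) and 7 at P28 (9). It was 8 for anagen against telogen effects (7) and 16 for P60 against P20 in controls (15). The shares of all genes called with the block were 16.9%, 26.3%, 27.7% and 6.64%, in the same order. The count was 0, as without the block, in the other 4 comparisons. For anagen against telogen effects edgeR with TMM called 11 (30.5% of all genes) and DESeq2 13 (34.0%), beside 7 (30.2%). For P28 against P24 in controls DESeq2 called 1 (10.7% of all genes) and the single fit over 24 libraries 2 (9.22%), beside 0 (1.46%). Leaving out 1 library gave 1 to 4 calls at P24, 5 to 18 at P28 and 6 to 13 for anagen against telogen effects. For P60 against P20 in controls it gave 6 to 19, beside 15 with all libraries (12.6% of all genes). There the fits with the fewest calls also called a smaller share of all genes, as given above. For anagen against telogen effects 26.0% to 31.0% of all genes were called in the fits without 1 library. Of all genes, 14.6% to 28.7% were called in the P24 fits. At P24 the count was 4 without control 1, 2 without control 2, 3 without control 3, 2 without dM1/2 1 and 1 without dM1/2 2 or 3. At P28 it was 5 without control 1 or dM1/2 3 and 6 without dM1/2 1 or 2. It was 8 without P28 control 2 and 18 without the library labelled P28 control 3. Of all genes, 21.5% to 40.9% were called in these P28 fits. No call of a named gene changed direction. Of the values of called and named genes under other settings 649 stayed past the threshold and 48 did not, and under the fits without 1 library 841 did and 197 did not. In the single fits with an arm of 2 libraries those 2 are assumed to vary like the others. Ifi44, Oas3 and Oasl1 rest on few reads, with 0 to 17, 2 to 58 and 2 to 13 per library in P20 and P60 controls.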

Other observations

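Genes outside the lists were read in P60 dM1/2 1 after their values had been seen. The complement gene C6 was at 374 normalized reads, beside at most 21.2 in the other P60 libraries, C1qc was at 194 beside at most 18.9, and Clec10a, a lectin of macrophages and dendritic cells, was at 149 beside at most 11.8. Of the listed interferon-stimulated genes, Lgals3bp was at 17965 beside at most 3272 and Ifi27l2a at 4923 beside at most 636.0.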
